A study of Mus musculus with 11 samples.

Results

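The guanylate-binding proteins examined here are the products of Gbp2, Gbp3, Gbp5, Gbp6, Gbp7 and Gbp9, 6 genes taken by symbol from the 36529 gene rows of the count data, in which 10 rows carry a Gbp symbol. The genes were selected on their fold changes over controls in these samples, so their rise over control cells is described without a test. The cells were BV2, an immortalised mouse microglial line from C57BL/6. In one experiment, 3 samples were treated with the amino-terminal fragment of apolipoprotein E4, residues 1 to 151 (nApoE4; group ApoE4), and 3 were untreated (ControlA). In the other, 2 samples received the corresponding fragment of apolipoprotein E3 (nApoE3; group ApoE3) and 3 were untreated (ControlB). Both fragments carried a histidine tag and were given at 25 μg/mL for 5 h, in conditioned medium per the study's methods, whereas the sample records name a PBS vehicle. The fragments differ from each other at a single residue. Each fragment was run against its own controls, so fragment and experiment cannot be told apart.

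Guanylate-binding proteins are large GTPases of the dynamin superfamily that vertebrate cells make in response to interferons. They assemble on the membranes of pathogen-containing vacuoles and on bacteria that have escaped into the cytosol, expose lipopolysaccharide to inflammatory caspases and promote inflammasome assembly. In macrophages and microglia their transcripts are a customary readout of interferon and Toll-like receptor signalling. Transcription is driven mainly through interferon-stimulated response elements (ISRE), bound by IRF factors, and gamma-activated sites (GAS). NF-kappa-B can add to it through kappa-B sites.

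The mouse genes lie in 2 clusters. On the GRCm38.p6 annotation of RefSeq, Gbp5 (chr3:142496934-142522344), Gbp7 (chr3:142530336-142550151), Gbp3 (chr3:142560016-142573213) and Gbp2 (chr3:142620663-142638008) are on the plus strand of chromosome 3. Gbp9 (chr5:105076464-105110357) and Gbp6 (chr5:105270702-105295871) are on the minus strand of chromosome 5. The RefSeq promoter table matched 4 of the 6 genes, those of chromosome 3. The 250 bases before the start are shown for each of these 4, because interferon acts on the transcription of these genes through such sites. Sequences are in the plus-strand direction of GRCm38.p6, 5′ to 3′, from chr3:142620413-142620662 for Gbp2, chr3:142496684-142496933 for Gbp5, chr3:142559794-142560043 for Gbp3 and chr3:142530086-142530335 for Gbp7. Capitals mark matches on either strand to an ISRE core (GAAANNGAA), a GAS core (TTCNNNGAA) or a kappa-B form (GGNNTTTCC).
Gbp2: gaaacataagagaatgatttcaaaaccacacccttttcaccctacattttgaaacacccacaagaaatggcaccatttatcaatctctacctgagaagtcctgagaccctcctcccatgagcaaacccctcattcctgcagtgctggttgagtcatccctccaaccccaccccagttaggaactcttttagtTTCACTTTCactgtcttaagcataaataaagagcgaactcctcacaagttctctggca
Gbp5: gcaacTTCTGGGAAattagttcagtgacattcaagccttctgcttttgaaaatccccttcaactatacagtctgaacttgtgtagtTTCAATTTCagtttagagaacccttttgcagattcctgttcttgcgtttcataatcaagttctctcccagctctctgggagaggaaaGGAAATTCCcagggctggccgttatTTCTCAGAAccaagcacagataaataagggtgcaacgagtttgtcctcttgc
Gbp3: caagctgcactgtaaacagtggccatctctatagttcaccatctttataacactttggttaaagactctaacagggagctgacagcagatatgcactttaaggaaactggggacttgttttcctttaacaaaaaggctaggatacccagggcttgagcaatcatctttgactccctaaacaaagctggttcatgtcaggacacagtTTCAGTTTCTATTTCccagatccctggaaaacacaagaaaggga
Gbp7: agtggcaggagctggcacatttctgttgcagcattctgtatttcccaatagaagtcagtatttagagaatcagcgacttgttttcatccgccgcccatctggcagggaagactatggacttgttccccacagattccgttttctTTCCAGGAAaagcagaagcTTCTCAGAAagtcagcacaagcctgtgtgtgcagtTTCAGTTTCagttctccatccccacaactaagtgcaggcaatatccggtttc
Each of these 4 windows held an ISRE core. In Gbp2 it began 58 bases before the start, in Gbp5 164 bases, in Gbp7 52 bases, and in Gbp3 matches beginning 44 and 38 bases before the start overlapped. GAS cores lay in Gbp5, 245 and 52 bases before the start, and in Gbp7, 106 and 87 bases before it. The kappa-B form was found in Gbp5, 77 bases before the start. The Gbp3 window shown reaches slightly into the annotated span of the gene, whose listed start lies upstream of the start used for the window. A further RefSeq start of Gbp3, with its window at chr3:142560106-142560355, held no match to the 3 forms. Over 32851 windows of the same length, 7.13% held the ISRE core, 7.02% the GAS core and 4.93% the kappa-B form. The matches describe the letters of the reference and not binding.

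**Figure D1:**
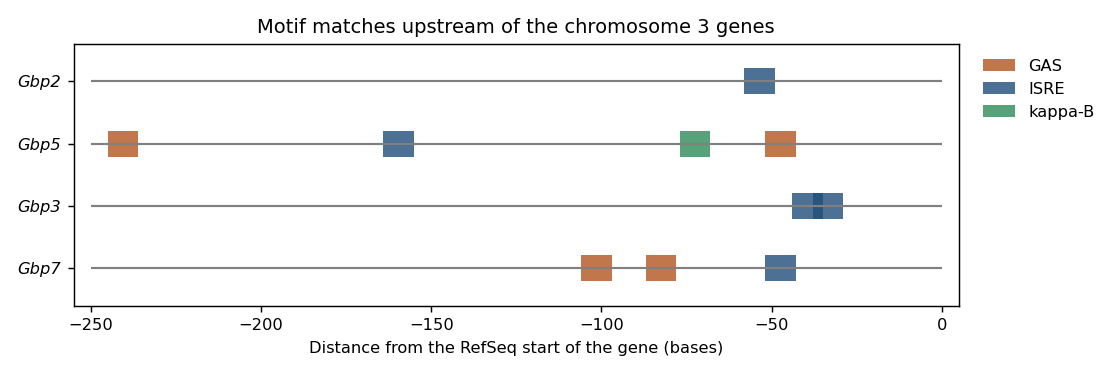
Positions of motif matches in the 250 bases before the RefSeq start of Gbp2, Gbp5, Gbp3 and Gbp7; the horizontal axis is the distance from the start in bases, and each coloured box is 1 match. An ISRE core lies 58 bases before the start of Gbp2 and 52 bases before that of Gbp7, and Gbp5 is the gene here with all 3 forms.

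The libraries held 39732710 to 44162511 counts on genes in the nApoE4 experiment and 55809688 to 69768666 in the nApoE3 experiment. Before scaling, a floor of 3 counts thus corresponded to 0.0679 to 0.0755 and to 0.0430 to 0.0538 counts per 1e6 counts on genes, respectively. Levels below are in CPM (counts per 1e6 counts on genes, scaled). Of 13 microglia and macrophage markers, 10 were above 1 CPM in ControlA and ApoE4 and 9 in ControlB and ApoE3, with a summed level of 2680 to 3894 CPM. P2ry12 was at 0 in all samples, and Aif1 and Cx3cr1 stayed under 1 CPM. Trem2 made the count 10 or 9, at 21.5 CPM in ControlA, 2.98 in ApoE4, 0.722 in ControlB and 0.521 in ApoE3. Other markers differed between the controls in either direction. Tyrobp was at 625 CPM in ControlA and 247 in ControlB, and Tmem119 at 2.81 and 8.56. Markers of oligodendrocytes summed to 9.28 to 25.4 CPM and were higher in the nApoE3 experiment, treated or not, with Mog at 0. Neuronal markers summed to 1.15 to 6.39 CPM and were highest with nApoE4, through Tubb3. The lists for astrocytes, T cells, endothelial cells and fibroblasts each summed to under 2 CPM. The part of other cells in the results was not tested. In bulk RNA, fewer cells with a transcript and less of it per cell cannot be told apart. The study calls its data independent measurements or trials, and the sources used here do not say what separated the samples of a group, so p-values measure the spread between these samples.

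Gbp2 reached the highest level of the family with either fragment. Its product, a prenylated GTPase, takes part in the control of vacuolar pathogens. In ControlA it stood at 1.50, 1.43 and 1.35 CPM, and with nApoE4 at 313, 286 and 313 CPM. In ControlB it stood at 1.44, 1.42 and 1.88 CPM, and with nApoE3 at 273 and 247 CPM. The control samples of both experiments covered one range, and every treated sample was far above it. The log2 fold change was 7.74 (standard error 0.091), or 214-fold, with nApoE4 and 7.37 (standard error 0.070), or 165-fold, with nApoE3.

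Gbp5, which promotes NLRP3 inflammasome assembly, went from the edge of detection to a high level. It had 6, 5 and 6 counts in ControlA and 16, 10 and 22 in ControlB. With nApoE4 it had 3518, 3527 and 3542 counts, and with nApoE3 4421 and 3823. Scaled to depth, control levels were 0.141, 0.112 and 0.129 CPM in ControlA and 0.227, 0.162 and 0.390 CPM in ControlB. Thus the ControlB samples all lay above the ControlA samples, although on few counts. Treated levels were 82.0, 84.9 and 89.2 CPM with nApoE4 and 76.0 and 67.7 CPM with nApoE3. The log2 fold change was 9.37 (standard error 0.11) with nApoE4, rank 3 from the highest of 14240 genes tested. With nApoE3 it was 8.12 (standard error 0.11), rank 5 of 14817. These folds correspond to 661 and 279.

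Gbp3 and Gbp7, neighbours on chromosome 3, were already transcribed in control cells. Gbp7 has been tied to oxidative and autophagic defence in macrophages. Gbp3 levels were 8.50, 8.14 and 7.95 CPM in ControlA and 4.60, 4.17 and 4.68 CPM in ControlB. They were 124, 112 and 123 CPM with nApoE4 and 168 and 156 CPM with nApoE3. Thus Gbp3 was lower in ControlB than in ControlA but higher with nApoE3 than with nApoE4, with no overlap on either side. Gbp7 levels were 13.9, 11.3 and 12.2 CPM in ControlA, 101, 103 and 96.8 CPM with nApoE4, 9.75, 10.0 and 11.1 CPM in ControlB, and 165 and 157 CPM with nApoE3. It too was lower in ControlB than in ControlA and higher with nApoE3 than with nApoE4, without overlap. The gap between its control samples was small. Log2 fold changes of Gbp3 were 3.88 (standard error 0.072) with nApoE4 and 5.17 (standard error 0.049) with nApoE3. Those of Gbp7 were 3.01 (standard error 0.082) and 3.97 (standard error 0.045).

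Gbp9 and Gbp6 represent the chromosome 5 cluster. Gbp9 had the smallest fold change of the 6 genes with each fragment, and Gbp6 one of the larger. Gbp9 stood at 12.8, 13.4 and 13.4 CPM in ControlA and 5.38, 5.70 and 6.55 CPM in ControlB, and at 44.7, 44.3 and 43.0 CPM with nApoE4 and 42.4 and 39.4 CPM with nApoE3. The treated samples of both experiments were thus nearly level, while the ControlB samples were all below the ControlA samples. Its log2 fold change was 1.74 (standard error 0.059) with nApoE4 and 2.80 (standard error 0.065) with nApoE3. Gbp6 had 5, 2 and 9 counts in ControlA and 8, 5 and 16 in ControlB, which leaves its baseline poorly determined. With nApoE4 it had 763, 692 and 671 counts (17.8, 16.7 and 16.9 CPM), and with nApoE3 1661 and 1409 counts (28.5 and 25.0 CPM). The log2 fold change was 7.14 (standard error 0.21) with nApoE4 and 7.42 (standard error 0.16) with nApoE3.

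**Figure D2:**
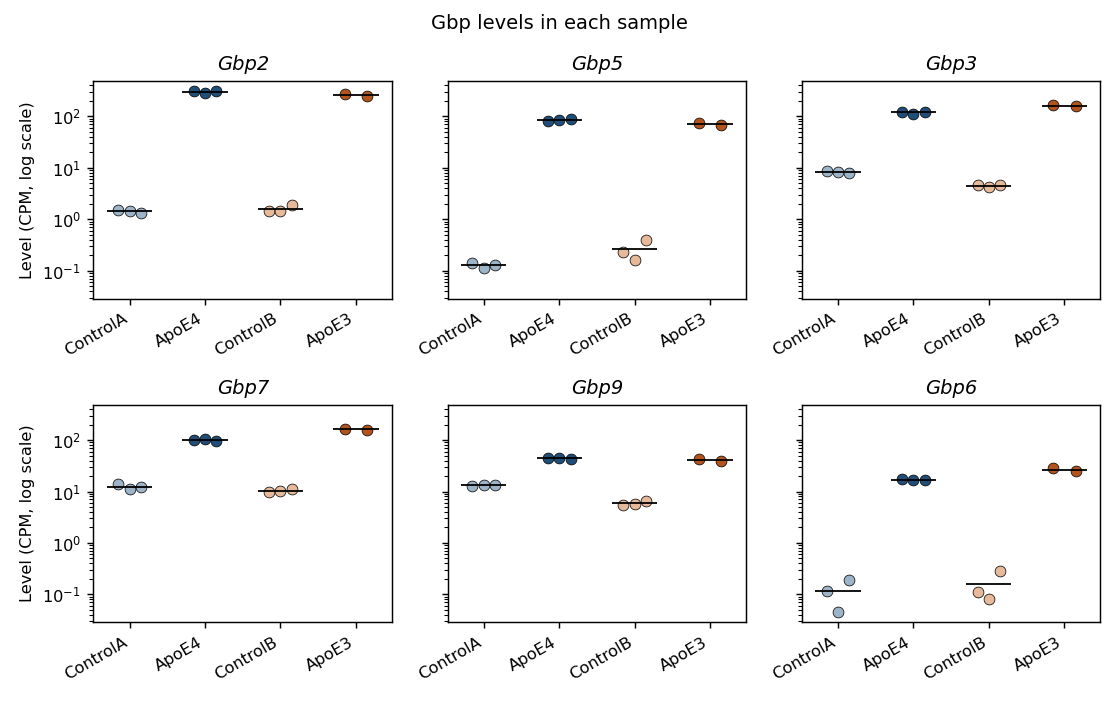
Level of each gene in each of the 11 samples, in CPM on a log axis, by group; points are samples and bars are group means. Gbp2, Gbp5 and Gbp6 start near or below 1.58 CPM in controls, whereas Gbp3, Gbp7 and Gbp9 start at group means of 4.49 to 13.2 CPM.

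With nApoE4, all 6 genes were past the threshold in the edgeR quasi-likelihood fit (Benjamini-Hochberg adjusted p under 0.05) and higher, in a comparison where 57.2% of all genes tested were called and 28.6% were called higher. With nApoE3, again all 6 were higher, where 67.7% were called, 33.1% higher and 34.6% lower. The choice of genes fixed these counts, and nothing is read from them. The median log2 fold change of the 6 genes was 5.51 with nApoE4 and 6.27 with nApoE3, beside 0.0013 and -0.0026 over all genes tested.

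Whether the 2 fragments differed in their effect was tested as a difference of the log2 fold changes, nApoE4 minus nApoE3, over all 11 samples. The genes were selected on these fold changes, so the test is not independent of their selection. In that edgeR fit 4 of the 6 genes passed, 3 of them toward a larger rise with nApoE3, where 28.3% of 15287 genes passed, 14.4% toward nApoE4 and 13.9% toward nApoE3. Gbp3 differed by -1.30 (95% interval -1.51 to -1.10, adjusted p = 6.56e-07 from edgeR), Gbp7 by -0.96 (-1.18 to -0.74, adjusted p = 1.73e-05) and Gbp9 by -1.07 (-1.28 to -0.86, adjusted p = 3.76e-06). These 3 genes were the ones with a measurable baseline above that of Gbp2. Gbp5 differed in the other direction, by 1.24 (0.39 to 2.09, adjusted p = 0.0314), but it entered the fit through its treated samples, and its control side rests on 5 to 22 counts a sample. The call for Gbp5 was lost without ControlA replicate 1, 2 or 3 (1.31, 1.16 and 1.25), without ControlB replicate 3 (0.87) and without ApoE3 replicate 2 (1.16), and in 7 of 18 alternatives in all. For Gbp2 the difference was 0.36 (0.030 to 0.70, adjusted p = 0.0985), and for Gbp6 -0.28 (-1.52 to 0.95, adjusted p = 0.758), neither past the threshold. The interval of Gbp6 is wide on both sides of 0, since its control levels rest on few counts.

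**Figure D3:**
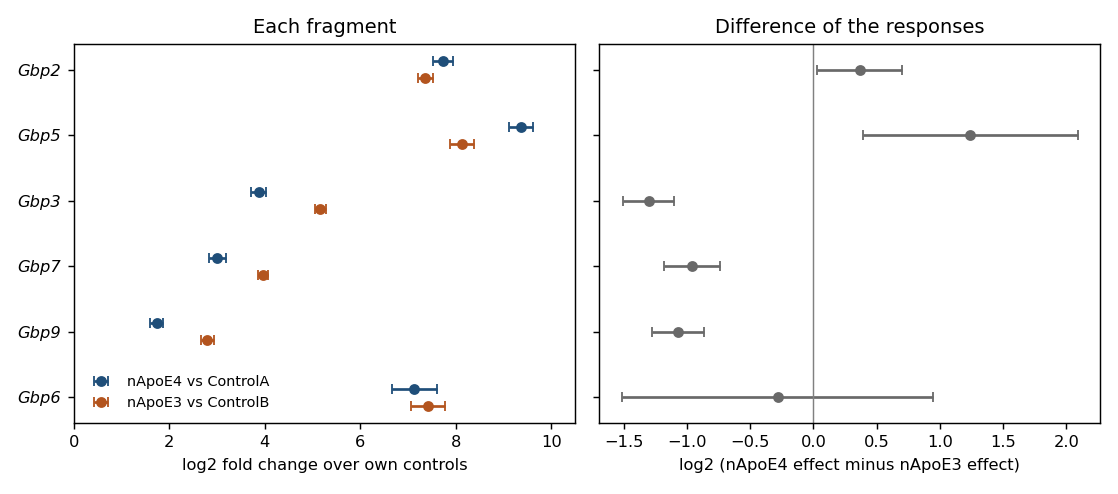
Left, log2 fold change of each gene over its own controls with nApoE4 and nApoE3; right, the difference of both responses on the log2 scale, from the fit of all 11 samples. Points are estimates and bars 95% intervals. Gbp3, Gbp7 and Gbp9 lie left of 0 at -1.30, -0.96 and -1.07, and Gbp5 lies right of it at 1.24.

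A difference of responses can come from treated or from control samples, and the genes were unlike in this. As log2 ratios of group means in 1 scaling of all samples, Gbp9 in ApoE4 over ApoE3 was 0.10, whereas in ControlA over ControlB it was 1.17. Gbp3 had both, with -0.43 between the treated groups and 0.87 between the controls. For Gbp7 the larger part lay between the treated groups, -0.68, with 0.28 between the controls. Gbp5 was 0.25 between the treated groups and -1.03 between the controls. For Gbp2 these values were 0.22 and -0.15, and for Gbp6 -0.64 and -0.43, with the control samples of both genes overlapping between the experiments. Treated samples did not overlap between fragments for any of the 6. How many of all genes were apart in this way was not counted, so nothing is read from it.

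The untreated cells of the experiments were compared by the same edgeR test, ControlB over ControlA. Of the 4 members with enough control counts to be tested, 3 were lower in ControlB, in a comparison where 69.3% of 14249 genes were called, 34.4% higher and 34.9% lower. Gbp9 was lower by a log2 value of -1.19 (adjusted p = 7.94e-06 from edgeR) and Gbp3 by -0.89 (adjusted p = 3.11e-05). Gbp7 was at -0.29 (adjusted p = 0.0233), a call lost without ControlA replicate 1 (-0.20), ControlB replicate 1 (-0.24) or ControlB replicate 2 (-0.26). Gbp2 was at 0.13 (95% interval -0.25 to 0.51, adjusted p = 0.498) and did not pass. Gbp5 and Gbp6 had too few control counts to enter this fit.

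To set the genes beside each other, levels were divided by transcript length. Per kilobase, Gbp3 (3.06 CPM) and Gbp9 (3.02 CPM) led in ControlA with overlapping samples, followed by Gbp7 (2.22 CPM) and Gbp2 (0.567 CPM), with Gbp6 (0.0454 CPM) and Gbp5 (0.0416 CPM) overlapping at the bottom. With nApoE4 the order was Gbp2 (121 CPM), Gbp3 (44.7 CPM), Gbp5 (28.0 CPM), Gbp7 (17.8 CPM), Gbp9 (10.0 CPM) and Gbp6 (6.57 CPM), and no neighbours overlapped. Gbp2 thus moved from below Gbp7 to the top, and Gbp9 from the leading pair to below Gbp7.

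In ControlB, Gbp7 (1.83 CPM per kilobase) and Gbp3 (1.67) overlapped at the top, above Gbp9 (1.34) and Gbp2 (0.629), with Gbp5 (0.0850) and Gbp6 (0.0612) overlapping at the bottom. With nApoE3 the order was Gbp2 (103 CPM per kilobase), Gbp3 (60.4), Gbp7 (28.7), Gbp5 (23.5), and then Gbp6 (10.3) and Gbp9 (9.34), which overlapped. Both fragments therefore placed Gbp2 first and Gbp3 second, and Gbp5 and Gbp7 changed places between them.

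Near-identical sequence limits the value for Gbp6. Of the 75-base windows of its transcript, the length of the reads, 57.2% occur also in another Gbp transcript, and reads that map to several places are tallied apart from the gene counts. The fate of reads from these windows was not followed. That share was 0.983% for Gbp2, 1.26% for Gbp7, 2.68% for Gbp3 and 2.79% for Gbp9, and Gbp5 had no such window. With lengths restricted to windows of a single gene, Gbp6 came to 15.8 CPM per kilobase with nApoE4 and 24.7 with nApoE3, which places it above Gbp9 in both. Its level is thus uncertain, whereas its fold change compares the same windows in every sample. In the RefSeq annotation Gbp3 overlaps the lncRNA Gm40158, and Gbp2 the microRNA gene Mir6381, both at 0 counts in all 11 samples.

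The make-up of the Gbp transcripts changed along with their amount. The 10 Gbp rows summed to 41.9 ± 0.967 (SD, n = 3) CPM in ControlA and 691 ± 18.7 (SD, n = 3) CPM with nApoE4. They summed to 25.0 ± 1.88 (SD, n = 3) CPM in ControlB and 728 ± 42.6 (SD, n = 2) CPM with nApoE3. The 6 members held 84.8% of these counts in ControlA, 97.0% with nApoE4, 90.5% in ControlB and 99.3% with nApoE3. Gbp2 supplied 3.41 ± 0.187% (SD, n = 3) of the Gbp counts in ControlA and 44.0 ± 1.11% (SD, n = 3) with nApoE4, and 6.30 ± 0.542% (SD, n = 3) in ControlB and 35.7 ± 0.377% (SD, n = 2) with nApoE3.

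Gbp5 went from 0.303% of the Gbp counts in ControlA to 12.4% with nApoE4, and from 1.02% in ControlB to 9.87% with nApoE3. Gbp9 went the other way, from 31.6% to 6.37% and from 23.5% to 5.62%, although its own level rose. The share of Gbp7 was also smaller in treated samples, from 29.7% to 14.5% with nApoE4 and from 41.1% to 22.1% with nApoE3. The share of Gbp3 was 19.6%, 17.3%, 18.0% and 22.3% in ControlA, ApoE4, ControlB and ApoE3. It was lower with nApoE4 and higher with nApoE3 than in the controls of each, without overlap of samples. Per kilobase it was 26.6% in ControlA, 19.0% with nApoE4, 25.5% in ControlB and 25.5% with nApoE3. Within a sample these shares do not depend on the scaling of libraries. With 3 samples a group, an exact two-sided permutation test cannot go below 0.1, and none was run.

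**Figure D4:**
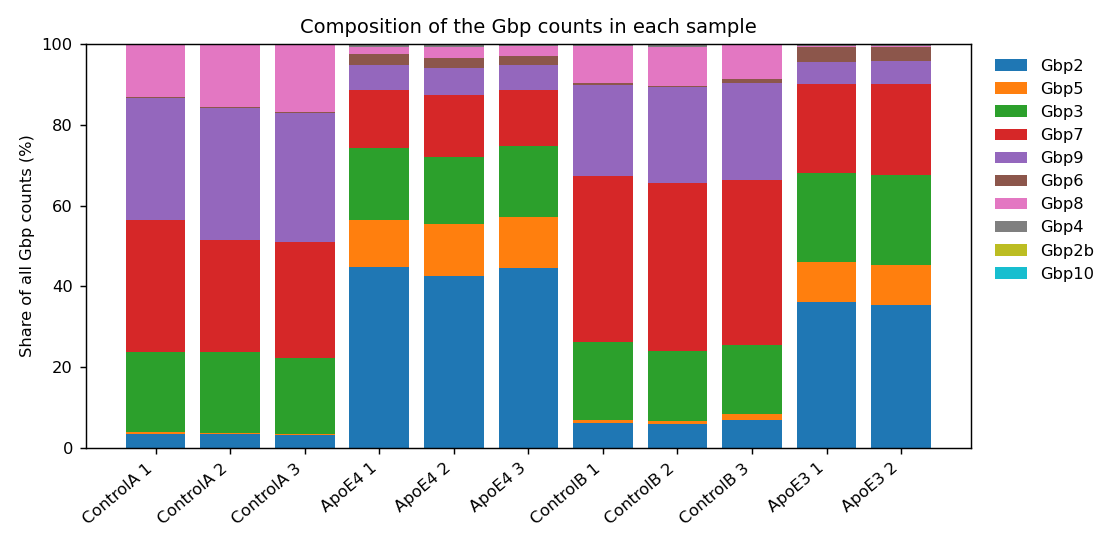
Share of each Gbp row in the summed Gbp counts of each of the 11 samples, in percent, stacked to 100. Gbp2 takes a mean of 3.41% in ControlA and 6.30% in ControlB against 44.0% with nApoE4 and 35.7% with nApoE3, while the bands of Gbp9 and Gbp8 narrow.

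Among the other Gbp rows, Gbp8 behaved unlike the members. It stood at 5.47, 6.25 and 6.92 CPM in ControlA and 12.9, 18.4 and 16.3 CPM with nApoE4. In ControlB it stood at 2.17, 2.28 and 2.25 CPM, and with nApoE3 at 2.13 and 2.11 CPM. Its log2 fold change was 1.36 (standard error 0.14) with nApoE4 and -0.08 (standard error 0.13) with nApoE3, a difference of 1.42 (95% interval 0.99 to 1.86, adjusted p = 0.000188 from edgeR). Every nApoE4 sample lay above the ControlA samples, while the nApoE3 value lay within its standard error of 0. Gbp4 had 3 to 9 counts in control samples, 198, 186 and 154 with nApoE4, and 154 and 142 with nApoE3. Gbp2b had at most 1 count in a control sample and 6 to 8 in treated ones, and Gbp10 at most 2 in controls and at most 10 in treated samples. As 39.8% of the Gbp10 windows occur in other Gbp transcripts, its counts are uncertain.

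The immunity-related GTPases (IRG), which act with guanylate-binding proteins on vacuole membranes, were measured alongside. Of the 8 in the list, 5 had enough counts to be tested, and Irgm1, Irgm2 and Igtp were called higher with each fragment. Among all genes tested, 28.6% were called higher with nApoE4 and 33.1% with nApoE3. Iigp1 and Gm12250 were also called, but they entered the fits through their treated samples, so their direction was fixed by entry and nothing is read from it. Irgm1, a regulator of the family, had 212, 303 and 182 counts in ControlA and 865, 767 and 792 with nApoE4. It had 269, 247 and 267 counts in ControlB, and 2396 and 2689 with nApoE3. The rise was larger with nApoE3, with log2 fold changes of 1.91 (standard error 0.16) and 3.41 (standard error 0.081).

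Irgm2 and Igtp (also known as Irgm3) followed the same order, at 2.51 (standard error 0.15) and 1.87 (standard error 0.24) with nApoE4, and 3.63 (standard error 0.11) and 3.24 (standard error 0.15) with nApoE3. The differences of the responses, nApoE4 minus nApoE3, were -1.51 for Irgm1, -1.12 for Irgm2 and -1.38 for Igtp, all 3 past the threshold, in a fit where 28.3% of all genes were. Those of Iigp1 and Gm12250 did not pass (adjusted p = 0.254 and 0.831 from edgeR), and as their control counts were at or near 0 no size is given. Iigp1, an effector that coats vacuoles, had no count in the 3 ControlA samples, 20, 23 and 20 with nApoE4, 7, 7 and 10 in ControlB, and 428 and 385 with nApoE3. Gm12250 had 1, 0 and 0 counts in ControlA, 25, 25 and 32 with nApoE4, 4, 1 and 7 in ControlB, and 223 and 229 with nApoE3. Tgtp1, Tgtp2 and Ifi47 had at most 4 counts in any sample.

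Upstream, 17 genes for inducers of Gbp transcription (interferon receptors, kinases, transcription factors, interferons and NF-kappa-B subunits) were followed. With nApoE4, 12 of 16 tested were called higher and 1 lower, with a median log2 fold change of 1.17. With nApoE3, 14 were called higher and 2 lower, with a median of 1.10. Over all genes tested, 28.6% were called higher and 28.6% lower with nApoE4, and 33.1% and 34.6% with nApoE3. In the list, the largest change with nApoE4 was that of Ifnb1, the interferon beta gene, at 4.93 (standard error 0.51), beside 3.63 (standard error 0.34) with nApoE3. However, Ifnb1 was near 0 in controls and entered the fits through treated samples, so its direction was fixed by entry. Its size is also uncertain. With a prior count of 2 it was at 3.77 with nApoE4, beside 3.71 for Irf1. Ifnb1 is part of the counts and medians of the list.

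Irf1, which encodes a factor that binds response elements of Gbp promoters, rose by 3.71 (standard error 0.068) with nApoE4 and 2.44 (standard error 0.049) with nApoE3 on the log2 scale. The difference of the responses was 1.26 (95% interval 1.06 to 1.46, adjusted p = 6.52e-07 from edgeR). Whether Irf1 has a part in the differences of the Gbp genes was not tested. Irf9, a subunit of the complex that type I interferon activates, rose by 2.42 (standard error 0.060) and 2.35 (standard error 0.11). For Ifnb1 the difference was 1.32 (95% interval -0.42 to 3.07, adjusted p = 0.255) and for Irf9 0.063 (-0.31 to 0.43, adjusted p = 0.827), and neither passed. The gene for interferon gamma, Ifng, did not have enough counts to be tested.

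Downstream, 8 genes of the inflammasome reactions that guanylate-binding proteins promote were listed. With nApoE4, 6 of 7 tested were called higher and 1 lower, and with nApoE3 6 of 8 higher and 1 lower. The lower call with nApoE3 was lost (0 lower) without ApoE3 replicate 2 and with all samples in one fit. The shares over all genes were 28.6% higher and 28.6% lower with nApoE4, and 33.1% and 34.6% with nApoE3. Il1b, the cytokine that caspase-1 matures, rose by 7.76 (standard error 0.11) and 7.50 (standard error 0.079) on the log2 scale. Nlrp3, the sensor, rose by 3.62 (standard error 0.069) and 3.88 (standard error 0.038), and Casp4, which encodes the caspase that binds lipopolysaccharide, by 3.03 (standard error 0.079) and 3.07 (standard error 0.050).

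The machinery that loads and anchors these GTPases showed small values in either direction. Of 8 autophagy genes of the ubiquitin-like conjugation system, none was called higher with nApoE4 and 2 were lower, while with nApoE3 4 were higher and 2 lower. The number called lower with nApoE3 came to 1 when any one of the 5 samples of that fit was left out. Atg7, the activating enzyme, was at -0.41 (standard error 0.055) and -0.51 (standard error 0.031), and Gabarapl1 at -0.24 (standard error 0.063) and 0.090 (standard error 0.028). Of 5 prenylation genes, 1 was called higher and 1 lower with nApoE4, and 3 were lower with nApoE3. Beside them, 28.6% of all genes were called higher and 28.6% lower with nApoE4, and 33.1% and 34.6% with nApoE3. Nothing is read from the counts of either list. Pggt1b, a subunit of the enzyme that attaches geranylgeranyl groups, was at 0.19 (standard error 0.067) and -0.16 (standard error 0.029), and Icmt, the terminal methyltransferase, at -0.19 (standard error 0.056) and -0.14 (standard error 0.039). The call of Pggt1b with nApoE4 was lost with library size alone (0.096), with the filter of at least 1 count (0.17) and without ControlA replicate 1 or 2 (0.20 and 0.12) or ApoE4 replicate 1, 2 or 3 (0.19, 0.19 and 0.18). That of Icmt was lost without ControlA replicate 1 (-0.18) or ApoE4 replicate 1 or 3 (-0.17 and -0.18), and with nApoE3 without ApoE3 replicate 2 (-0.083). Under the replicate block, neither Pggt1b (0.19) nor Icmt (-0.19) was called with nApoE4. Gabarapl1 with nApoE3 was lost without ApoE3 replicate 2 (0.063) and with all samples in one fit (0.097).

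For each member the genes with the nearest profile were sought among 15281, by Euclidean distance between log2 CPM over the 11 samples after centring each gene on its own mean. Profiles were not scaled, so the distance also reflects the size of the change. The samples share 4 conditions, so a small distance says only that the pattern over conditions and its size were alike. Nearest to Gbp2 were Traf1 (0.942), Acod1 (1.05) and Zfp811 (1.38), and nearest to Gbp5 were Cxcl2 (1.09), Acod1 (1.47) and Il12b (1.94). Acod1, the enzyme that makes itaconate, was near both, with mean levels of 7.97, 2574, 8.04 and 1543 CPM in ControlA, ApoE4, ControlB and ApoE3. Cxcl2, a chemokine for neutrophils, went from 0.535 to 268 CPM and from 0.872 to 257 CPM. Gbp6 lay nearest to Il1b (1.69), Zfp811 (1.98) and Traf1 (2.09).

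Nearest to Gbp3 were the chemokine gene Ccl3 (0.736), Mnda (0.852) and Tarm1 (0.957). Ccl3, like Gbp3, was lower in ControlB (57.1 CPM) than in ControlA (128 CPM) and higher with nApoE3 (1781 CPM) than with nApoE4 (1328 CPM). Gbp7 lay nearest to Sp100 (0.773), Sdc4 (0.794) and Ifih1 (0.807), the last a sensor of double-stranded RNA. Gbp9 lay nearest to Zc3h12a (0.424), which encodes a ribonuclease that degrades inflammatory transcripts, 9130221F21Rik (0.580) and Stap1 (0.599). Among the members, the smallest distances were from Gbp2 to Gbp5 (1.88) and Gbp6 (1.89), Gbp3 to Gbp7 (1.92), and Gbp7 to Gbp9 (2.37). Gbp5 and Gbp9 were farthest apart (10.6). The distances from Gbp7 to Gbp3 and to Gbp9 exceeded those of these genes to the non-members named above. The groupings go with the size of the change. Over the 11 samples, the standard deviation of log2 CPM was 4.47 for Gbp5, 3.94 for Gbp2 and 3.69 for Gbp6. It was 2.36 for Gbp3, 1.81 for Gbp7 and 1.27 for Gbp9. The groupings cross the chromosomal clusters, since Gbp6 lies on chromosome 5 with Gbp9 and Gbp3 on chromosome 3 with Gbp2.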

How the data were processed

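RNA from BV2 cells was sequenced as single reads of 75 bases. The authors trimmed reads with Trim Galore 0.5.0, checked them with FastQC 0.11.8, mapped them to GRCm38.p6 with HISAT2 2.1.0 and counted them per gene with HTSeq 0.11.0. The deposited values are these raw counts, unscaled, 1 file a sample. The strand setting, overlap rule and annotation release are not given in the sources used here. The 5 tallies of uncounted reads were left out of library sizes, 22.3 to 24.0% of all tallied reads. Groups came from the sample labels.

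Counts were tested with edgeR 4.0.16 (R 4.3.3; filterByExpr, TMM, quasi-likelihood F test, Benjamini-Hochberg over all genes tested). Each fragment was fitted with its own controls, and the difference of responses over all 11 samples. Standard errors were taken as the log2 fold change over the square root of F. CPM used 1 TMM scaling of all samples, and likeness a prior count of 2. No replicate pair agreed within sampling noise, with a chi-square over genes per degree of freedom of 3.15 to 47.9. The highest values were those of ControlA replicate 2, 25.8 with replicate 1 and 47.9 with replicate 3, beside 7.85 for replicates 1 and 3. Alternatives were DESeq2 1.42.0, its size factors, library size alone, other count filters, a replicate block, thinned counts, another prior count, all samples in one fit and leaving out each replicate.

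The members, gene lists and tests were chosen with earlier results of these data known. Named genes were the members, the other Gbp rows, all IRG genes, the 3 genes of each other list with the largest called change with nApoE4, and the 3 nearest profiles. Motif positions and 75-base windows came from RefSeq (promoters, GRCm38.p6) and GENCODE transcripts. A planned comparison of the proteins was not made.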

Additional observations from a re-analysis of the deposited data

Results flagged for a closer look

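For 4 members the test of the difference of responses was past the threshold, as it was for 28.3% of all genes. The test sets each fragment against its own controls, and the members were selected on those same fold changes. It is thus not independent of their selection. On the log2 scale, nApoE4 minus nApoE3, Gbp3 was at -1.30, Gbp7 at -0.96, Gbp9 at -1.07 and Gbp5 at 1.24. All 3 negative values lie on genes that control cells already transcribed, and the positive one on a gene with 5 to 22 counts in each control sample, which entered the fit through its treated samples and lost its call in 7 of 18 alternatives. Fragment and experiment cannot be told apart in these values.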

How the results depend on the processing

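The members were selected on their fold changes over controls, so the 88 checks with nApoE4 and the 83 with nApoE3 are not read as support, although none altered a call. For the difference of the responses, 101 of 112 checks of members gave the same verdict, 7 lost a call (all of Gbp5), 2 gained one (Gbp2, 0.42 with library size alone and 0.49 with thinned counts) and 2 changed sign. Those 2 were Gbp6, at 0.28 without ControlA replicate 3 and 0.013 without ControlB replicate 2, in a range of -0.92 to 0.28 as each replicate was left out. Between the controls, 56 of 60 were the same, 3 lost the call of Gbp7, and Gbp2 turned to -0.0031 without ControlB replicate 3, in a range up to 0.21. Requiring 10 counts in every sample removed Gbp6 from every fit and Gbp5 from those with ControlA. With the replicate block, genes called for the difference of responses fell from 4331 to 2307 and those toward nApoE4 from 2208 to 1150, and Gbp5 (0.86) was no longer called. Deviations of same-numbered samples from their group means had a mean correlation of -0.091 over 3 pairs and -0.010 over 2. With so few pairs, and means taken from the same samples, this cannot decide whether the numbers pair samples. Irf9 turned to -0.13 under the block and to -0.13 without ControlB replicate 3 (range -0.13 to 0.21 as replicates were left out), Gabarapl1 with nApoE3 to -0.041 with library size alone, and Gbp8 with nApoE3 to 0.022 with thinned counts. Per kilobase, the share of Gbp2 in all Gbp counts was 4.93% in ControlA, 51.3% with nApoE4, 9.54% in ControlB and 43.6% with nApoE3. The length by windows of a single gene, which raised Gbp6, was chosen after seeing the data. The cause of these changes was not tested. Few control counts limit Gbp5 and Gbp6.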
